A study of Mus musculus with 13 samples.

Results

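Open chromatin at 10 Wnt pathway genes, Wnt7a, Wnt7b, Axin2, Lef1, Tcf7l1, Tcf7l2, Apc, Ctnnb1, Apcdd1 and Notum, was examined in cultured mouse oligodendrocyte progenitor cells (OPCs). The genes were taken by name from the 55450 genes of the annotation, for their part in Wnt signalling during oligodendrocyte differentiation. They were not selected by their values in these libraries, but earlier results of these data were known when they were chosen. All 10 were found. Each gene was described by its called ATAC-seq peaks at any transcription start, in the gene body and within 20 kb on either side. Together these loci held 107 of the 99746 merged peaks of the series, a merged peak being a region covered by overlapping peaks of any library.

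The 13 Omni-ATAC libraries, in which the Tn5 transposase marks open chromatin, came from brainstem OPC cultures, 3 control and 3 K27M, and from telencephalon OPC cultures, 3 control and 4 K27M. K27M cultures carried the lysine-27-to-methionine mutation of histone H3.3, expressed from the endogenous H3-3a gene after hGFAP-Cre (AMGFAP-Cre in the labels) removed a stop cassette. This Cre acts in neural stem and progenitor cells, so the cells of other lineages that arise from them also carry the mutation. Control cultures came from littermates without K27M. Pups of postnatal day 5 to 7 were pooled by region and genotype, so a culture is a pool of animals and not 1 mouse. The telencephalon samples, called cortex in the labels, held cortex, corpus callosum and hippocampus. All cultures were depleted of endothelial cells and microglia, selected on anti-PDGFRa plates and kept in proliferation medium with forskolin, CNTF, neurotrophin-3 and PDGF, without differentiation. Culture numbers were 51, 59 and 61 in both control groups, 41, 59 and 61 in K27M brainstem and 41, 51, 59 and 61 in K27M telencephalon.

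In canonical Wnt signalling, a secreted Wnt ligand bound to its receptors stops a cytoplasmic complex built on axin and APC from marking β-catenin for degradation. β-catenin then enters the nucleus and acts with DNA-binding partners of the TCF/LEF family. The pathway is known to hold OPCs back from maturing while it is high, whereas TCF7L2 is expressed as they begin to differentiate and takes part in that step. Wnt7 ligands released by OPCs also act on blood vessels.

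Peak lists ranged from 16879 to 52466 peaks per library, and the shortest list, that of control telencephalon culture 59, stood apart. It held 15 of the 107 merged peaks of the Wnt loci and called 4 of the 10 promoters, against 34 to 64 peaks and 8 to 10 promoters in the other 12 libraries. Over all genes of the annotation it called 12348 promoters, against 15668 to 19353 in the other 12 libraries. Fitted differences of the 10 Wnt genes that rest on this library are given below with and without it. Promoters of 4 OPC markers, Pdgfra, Olig1, Olig2 and Sox10, were called in all 13 libraries and that of Cspg4 in 3. Of 4 mature oligodendrocyte markers, 0 to 2 were called per library, with Mog and Mag in none. These calls were all in brainstem, Opalin in 3 of 6 libraries and Mobp in 1, with 0 of 7 telencephalic libraries for each. Promoter peaks were also called for 2 to 4 of 4 astrocyte markers, 2 to 4 of 4 neuronal markers, 0 to 2 of 4 microglial markers and 0 to 2 of 4 endothelial markers per library. Their part in the results was not tested, and in such bulk libraries a site open in fewer cells and a site less open in each cell cannot be told apart. The mutated gene itself, listed as H3f3a, had a promoter peak in 13 of 13 libraries, at 3.29 ± 0.41 times local background (SD, n = 13).

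Every Wnt gene had a called promoter peak in at least 4 libraries, and no promoter or neighbouring peak that could be tested by its height passed the threshold for region of origin or K27M. Promoters of Axin2, Apc, Ctnnb1 and Apcdd1 were called in 13 of 13 libraries, those of Wnt7a, Wnt7b, Tcf7l1 and Tcf7l2 in 12, that of Lef1 in 11 and that of Notum in 4. The 4 of 10 called in all 13 libraries lay near the 42.0% of all 21951 protein-coding genes. In 12 or 13 libraries there were 8 of 10, beside 50.6% of those genes. Promoter height is given below as the fold by which signal in a called peak exceeded the background estimated around it in that library, a ratio deposited by the authors, taken from the highest peak in a window of 2 kb upstream to 1 kb downstream of any annotated start. The percentile places this fold among all peaks of the same list, so that 50 is the middle peak. By mean fold the order was Apc, Tcf7l1, Tcf7l2, Apcdd1, Axin2, Wnt7b, Wnt7a, Ctnnb1, Lef1 and Notum. From Tcf7l1 down to Lef1, each gene differed from the next by less than the larger of their SDs, whereas Apc and Tcf7l1 differed by more than their SDs (4.03 ± 0.36 against 3.18 ± 0.37).

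**Figure D1:**
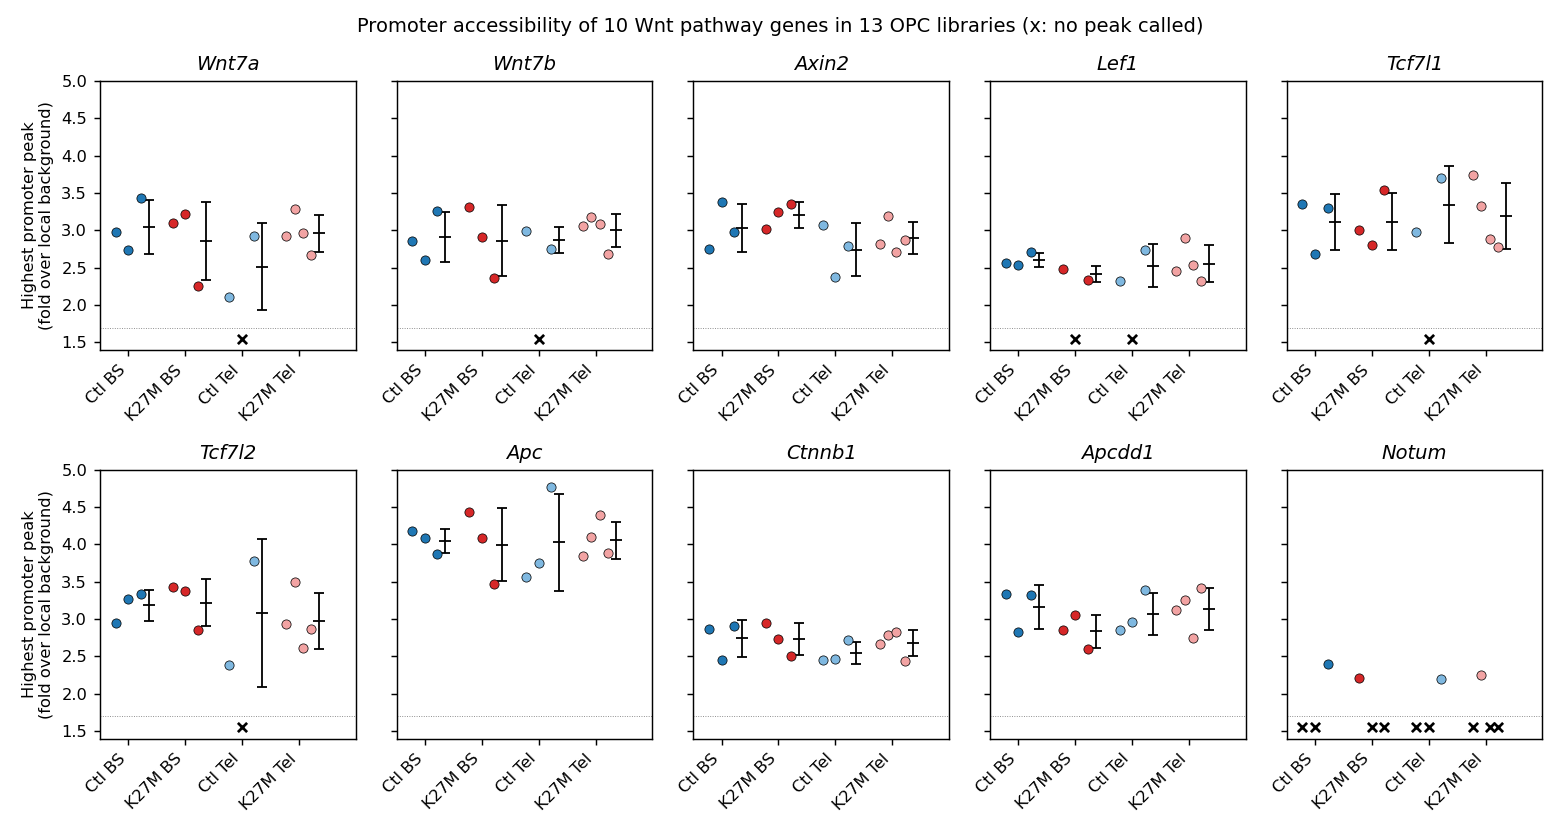
Promoter fold enrichment over local background (vertical axis, no unit) of the 10 Wnt genes in 4 groups: Ctl BS, control brainstem; K27M BS, K27M brainstem; Ctl Tel, control telencephalon; K27M Tel, K27M telencephalon. Dots are libraries, dashes with bars are group means ± SD and crosses are libraries without a called peak. Brainstem and telencephalon overlap, as do control and K27M, for the 9 genes called in 11 or more libraries, and Notum has 1 called library per group.

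Wnt7a and Wnt7b encode secreted ligands. The Wnt7a promoter (gene ENSMUSG00000030093.7, chr6:91363981-91411363, minus strand, mm10) had folds of 2.98, 2.73 and 3.44 in control brainstem cultures 51, 59 and 61, and of 3.10, 3.22 and 2.26 in K27M brainstem cultures 41, 59 and 61. Its folds were 2.11 and 2.92 in control telencephalon cultures 51 and 61, with no peak in 59, and 2.92, 3.28, 2.96 and 2.68 in K27M telencephalon cultures 41, 51, 59 and 61. The low libraries, K27M brainstem 61 and control telencephalon 51, belonged to different regions and genotypes, and all groups overlapped. Over the 12 libraries the fold averaged 2.88 ± 0.39 (SD), at a mean percentile of 43.4.

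The Wnt7b promoter (ENSMUSG00000022382.15, chr15:85535437-85582473, minus strand) averaged 2.92 ± 0.28 (SD, n = 12). In control brainstem cultures 51, 59 and 61 it reached 2.86, 2.60 and 3.26, and in K27M brainstem cultures 41, 59 and 61 it reached 3.31, 2.91 and 2.37. In control telencephalon cultures 51 and 61 the folds were 2.99 and 2.75, again with no peak in 59, and in K27M telencephalon cultures 41, 51, 59 and 61 they were 3.07, 3.17, 3.09 and 2.68. Brainstem values spanned the telencephalic ones on both sides. Both Wnt7 promoters were also lowest or near-lowest in K27M brainstem culture 61, a library that called 27768 peaks.

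Outside the promoters, the strongest peak of Wnt7a was intronic, at chr6:91401009-91402813, with a fold of 2.90 ± 0.31 (SD, n = 10), and that of Wnt7b was intronic at chr15:85555560-85556577, with 2.93 ± 0.34 (SD, n = 8). The Wnt7b intron peak was called in 5 of 6 brainstem and 3 of 7 telencephalic libraries (two-sided Fisher's exact test p = 0.266, adjusted p = 1). A weaker Wnt7a intron peak, chr6:91379000-91380445, had folds of 2.35 to 2.64 and was called in 4 of 6 brainstem and 1 of 7 telencephalic libraries (p = 0.103 by the same exact test, adjusted p = 1). In K27M cultures it was called in 3 of 3 brainstem and 0 of 4 telencephalic libraries, and in control cultures in 1 of 3 of each region. It was the only 1 of the 107 Wnt-locus peaks called throughout one group and nowhere in the other, for either region or genotype, over all cultures or within K27M, control, brainstem or telencephalon. By region in K27M cultures, 0.254% of the 99746 merged peaks of the series were divided in this way, and the shares for the comparisons with 0 Wnt-locus peaks were 0.275% by region in controls, 0.235% by genotype in brainstem and 0.188% by genotype in telencephalon. Detection within a genotype was not tested.

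Axin2, Notum and Apcdd1 encode inhibitors that the pathway itself induces in many tissues. AXIN2 is a scaffold of the destruction complex and a widely used readout of Wnt activity, NOTUM removes the lipid of Wnt ligands outside the cell, and APCDD1 binds ligands and receptors at the membrane. The Axin2 promoter (ENSMUSG00000000142.15, chr11:108920349-108950783, plus strand) was called in all 13 libraries. Its folds were 2.75, 3.38 and 2.98 in control brainstem 51, 59 and 61, and 3.02, 3.24 and 3.36 in K27M brainstem 41, 59 and 61. They were 3.07, 2.37 and 2.79 in control telencephalon 51, 59 and 61, and 2.81, 3.19, 2.71 and 2.87 in K27M telencephalon 41, 51, 59 and 61. The highest value was in control brainstem 59, followed by K27M brainstem 61 and 59, and the lowest was in control telencephalon 59.

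After normalization, the Axin2 promoter differed between brainstem and telencephalon by 0.10 ± 0.08 (SE) on the log2 scale, with a 95% interval of −0.06 to 0.26 (limma adjusted p = 0.946), and between K27M and control by 0.10 ± 0.09 (limma adjusted p = 0.999). Without control telencephalon 59 these differences were 0.07 ± 0.09 and 0.08 ± 0.10. Over all alternatives the region difference ran from 0.03, without control brainstem 59, to 0.16, and the genotype difference from 0.03, without K27M brainstem 61, to 0.20, without control brainstem 59. Its peak, chr11:108920122-108922117, covers the gene start. The strongest Axin2 peak outside the promoter lay in an intron 14.3 kb from the gene start, chr11:108933488-108935752, with a fold of 2.91 ± 0.41 (SD, n = 11) in 5 of 6 brainstem and 6 of 7 telencephalic libraries. A small intron peak, chr11:108925208-108925790, picked after its values were seen, was called in 2 control and 2 K27M brainstem libraries and in no telencephalic library. With folds of 1.88 to 2.26 and 4 libraries it was outside the range in which detection was tested.

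Both strands were searched for CTTTGAT, the sequence that the TCF/LEF partners of β-catenin favour, and for its variant. The variant, CTTTGTT, shares letters with the sites of SOX factors. In the promoter peak of Axin2, CTTTGAT occurred at 2 places, 78 bp after the gene start in the 5′ UTR (chr11:108920416-108920444) and 883 bp after it in an intron (chr11:108921212-108921258). These are shown, 5′ to 3′ on the plus strand of mm10 with the match in capitals, because Axin2 is the member most used as a Wnt target.
Axin2 UTR: agccggctgcgCTTTGATaaggtcctggc
Axin2 intron: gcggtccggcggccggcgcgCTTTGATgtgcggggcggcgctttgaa

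The RefSeq bases immediately upstream of the Axin2 start (GRCm38.p6, chr11:108920099-108920348, plus strand) lie within the promoter peak for all but the first 23 bases and held neither motif.
Axin2 upstream: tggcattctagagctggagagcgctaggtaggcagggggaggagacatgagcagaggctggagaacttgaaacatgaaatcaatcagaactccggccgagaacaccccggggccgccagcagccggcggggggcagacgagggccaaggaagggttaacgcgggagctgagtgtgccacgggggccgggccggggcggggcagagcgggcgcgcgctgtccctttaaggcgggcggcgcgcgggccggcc

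The Notum promoter (ENSMUSG00000042988.10, chr11:120653788-120661175, minus strand) was the weakest. It was called in control brainstem 61 at 2.40, K27M brainstem 41 at 2.22, control telencephalon 61 at 2.19 and K27M telencephalon 51 at 2.26, which is 1 library of each group and the 4 longest lists. Its percentiles, between 2.28 and 6.57, placed it among the lowest peaks of those lists. Its absence from the 9 shorter lists was read as not called at their depth.

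The strongest peak of the Notum locus was upstream of the gene, at the promoter of the neighbouring gene Aspscr1 (chr11:120672374-120673923), and was called in all 13 libraries. Its folds were 3.85, 3.57 and 5.14 in control brainstem 51, 59 and 61, 4.50, 4.00 and 3.33 in K27M brainstem 41, 59 and 61, 3.08, 2.43 and 3.71 in control telencephalon 51, 59 and 61, and 3.46, 4.01, 4.29 and 3.86 in K27M telencephalon 41, 51, 59 and 61. Control telencephalon 59 had the lowest value and control brainstem 61 the highest, with the groups overlapping. Brainstem exceeded telencephalon by 0.15 ± 0.07 (SE) log2 in the fit, at a limma adjusted p of 0.739. Without control telencephalon 59 the difference was 0.11 ± 0.08, with a 95% interval of −0.06 to 0.27.

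A second peak of this locus, at the promoters of Pycr1 and Myadml2 (chr11:120645005-120646957) and picked after its values were seen, was called in 1 of 6 control and 6 of 7 K27M libraries. Folds were 3.22 in control brainstem 61, 2.48, 2.89 and 2.56 in K27M brainstem 41, 59 and 61, and 2.87, 2.86 and 2.76 in K27M telencephalon 41, 51 and 61. By Fisher's exact test this gave the smallest genotype p among the 15 Wnt-locus peaks tested, 0.0291 (two-sided), and an adjusted p of 1.

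The Apcdd1 promoter (ENSMUSG00000071847.13, chr18:62922231-62961179, plus strand) averaged 3.06 ± 0.27 (SD, n = 13). Its folds were 3.34, 2.83 and 3.33 in control brainstem 51, 59 and 61, and 2.85, 3.05 and 2.60 in K27M brainstem 41, 59 and 61. They were 2.85, 2.96 and 3.39 in control telencephalon 51, 59 and 61, and 3.12, 3.25, 2.75 and 3.42 in K27M telencephalon 41, 51, 59 and 61. K27M brainstem held the lowest library, but its range overlapped every other group. The region difference was −0.11 ± 0.07 (SE) log2 with a 95% interval of −0.26 to 0.04 (limma adjusted p = 0.931), and the genotype difference −0.08 ± 0.08 (limma adjusted p = 0.999). They were −0.08 ± 0.08 and −0.04 ± 0.09 without control telencephalon 59. A second Apcdd1 peak at an internal start 11.8 kb downstream (chr18:62933536-62934513), picked after its values were seen, was called in 2 of 6 brainstem and 6 of 7 telencephalic libraries (two-sided Fisher's exact test p = 0.103, adjusted p = 1). Outside the Apcdd1 promoter, the strongest peak lay in the flank, at the promoter of the neighbouring gene Napg (chr18:62977514-62978990). This flank peak averaged 3.38 ± 0.46 (SD, n = 13).

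Apc encodes the large scaffold of the destruction complex and had the strongest promoter of the 10 (ENSMUSG00000005871.15, chr18:34220924-34322552, plus strand), at a mean percentile of 90.3. Its folds were 4.18, 4.09 and 3.87 in control brainstem 51, 59 and 61, and 4.44, 4.08 and 3.47 in K27M brainstem 41, 59 and 61. They were 3.56, 3.76 and 4.77 in control telencephalon 51, 59 and 61, and 3.85, 4.10, 4.39 and 3.89 in K27M telencephalon 41, 51, 59 and 61. The value was above 3.4 in every library, the shortest list included. Brainstem and telencephalon differed by −0.09 ± 0.07 (SE) log2, with a 95% interval of −0.23 to 0.05 (limma adjusted p = 0.937), and K27M and control by −0.06 ± 0.07 (limma adjusted p = 0.999). The values were −0.09 ± 0.08 and −0.06 ± 0.08 without control telencephalon 59. Over all alternatives the region difference of Apc ran from −0.17, without control brainstem 51, to −0.01, without normalization between libraries. Outside the Apc promoter, the strongest peak lay in the flank, at the promoter of the neighbouring gene Srp19 (chr18:34330502-34331599). This flank peak averaged 3.85 ± 0.53 (SD, n = 13).

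Separate Apc starts were open. The peak at the first start, chr18:34220004-34222126, which also covers the promoter of Gm10548, averaged 3.41 ± 0.55 (SD, n = 13), and the peak at an internal start 27.3 kb downstream, chr18:34247035-34249468, averaged 3.99 ± 0.38. At the first start the folds were 2.96, 2.86 and 3.87 in control brainstem 51, 59 and 61 and 4.44, 4.02 and 3.47 in K27M brainstem 41, 59 and 61. They were 2.87, 2.81 and 3.96 in control telencephalon 51, 59 and 61 and 3.17, 3.81, 3.11 and 2.96 in K27M telencephalon 41, 51, 59 and 61. K27M was higher than control in brainstem, apart from an overlap at control culture 61, and overlapped control throughout in telencephalon.

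At this first Apc start the fitted K27M effect was 0.31 ± 0.11 (SE) log2 in brainstem (limma adjusted p = 0.921) and −0.07 ± 0.10 in telencephalon (limma adjusted p = 0.998), or −0.07 ± 0.12 there without control telencephalon 59. The difference between the effects was 0.38 ± 0.14 (limma adjusted p = 0.999), and 0.38 ± 0.15 without control telencephalon 59 (limma adjusted p = 1.00). It did not pass the threshold.

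Ctnnb1 encodes β-catenin, the signal carrier of the pathway. Its promoter (ENSMUSG00000006932.17, chr9:120929216-120960507, plus strand) was low but called everywhere, at 2.68 ± 0.19 (SD, n = 13) and a mean percentile of 29.6. The folds were 2.87, 2.46 and 2.91 in control brainstem 51, 59 and 61, 2.95, 2.74 and 2.51 in K27M brainstem 41, 59 and 61, 2.45, 2.47 and 2.72 in control telencephalon 51, 59 and 61, and 2.67, 2.78, 2.83 and 2.44 in K27M telencephalon 41, 51, 59 and 61. Ctnnb1 showed the smallest differences of the 4 promoters tested by fold, 0.02 ± 0.06 (SE) log2 for region with a 95% interval of −0.11 to 0.14 (limma adjusted p = 0.995) and 0.01 ± 0.07 for genotype (limma adjusted p = 0.999), each 0.03 ± 0.07 without control telencephalon 59. Its locus had 3 merged peaks, the fewest of the 10, and the other 2 were each called in 1 library. The promoter peak, chr9:120932534-120935611, also covers the promoter of 4930593C16Rik and held a CTTTGAT match in an intron (chr9:120934623-120934669, plus strand), shown with the match in capitals because it lies in the single shared peak of the gene.
Ctnnb1 intron: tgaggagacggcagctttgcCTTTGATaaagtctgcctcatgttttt

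Lef1, Tcf7l1 and Tcf7l2 encode DNA-binding partners of β-catenin. LEF1 acts mostly as an activator, TCF7L1 mostly as a repressor, and TCF7L2 as either, depending on its partners. The Lef1 promoter (ENSMUSG00000027985.14, chr3:131110471-131224356, plus strand) was the weakest of the 3, at 2.54 ± 0.18 (SD, n = 11) and a mean percentile of 19.4. It had folds of 2.57, 2.54 and 2.71 in control brainstem 51, 59 and 61, and of 2.49 and 2.34 in K27M brainstem 41 and 61. It had 2.33 and 2.73 in control telencephalon 51 and 61, and 2.46, 2.90, 2.54 and 2.32 in K27M telencephalon 41, 51, 59 and 61. In brainstem the 3 control values lay above the 2 K27M values, while the telencephalic groups overlapped. The libraries without a peak were K27M brainstem 59 and control telencephalon 59. An intron peak 98.1 kb into the gene, chr3:131208235-131208959, was called in 6 libraries at 2.97 ± 0.35 (SD), 3 of 6 brainstem and 3 of 7 telencephalic, and 4 of 6 control and 2 of 7 K27M.

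The Tcf7l1 promoter (ENSMUSG00000055799.13, chr6:72626378-72789254, minus strand) averaged 3.18 ± 0.37 (SD, n = 12). Its folds were 3.35, 2.68 and 3.30 in control brainstem 51, 59 and 61, and 3.00, 2.80 and 3.54 in K27M brainstem 41, 59 and 61. They were 2.98 and 3.71 in control telencephalon 51 and 61, and 3.75, 3.33, 2.89 and 2.78 in K27M telencephalon 41, 51, 59 and 61. High and low libraries occurred in every group.

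Tcf7l2 had 2 clusters of open starts (ENSMUSG00000024985.19, chr19:55741820-55933654, plus strand). The peak at the first start, chr19:55741260-55745153, averaged 2.57 ± 0.22 (SD, n = 12), and the peak at an internal start 153.9 kb downstream, chr19:55895177-55896299, averaged 3.23 ± 0.31 (SD, n = 10) in 6 of 6 brainstem and 4 of 7 telencephalic libraries. The higher of them gave promoter folds of 2.94, 3.27 and 3.34 in control brainstem 51, 59 and 61, and of 3.43, 3.38 and 2.86 in K27M brainstem 41, 59 and 61. In control telencephalon 51 and 61 it gave 2.38 and 3.78, and in K27M telencephalon 41, 51, 59 and 61 it gave 2.93, 3.50, 2.61 and 2.87. The telencephalic libraries 51 (control) and 59 (K27M), which lacked the internal peak, had the lowest values, and control telencephalon 59 had neither peak.

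For the 4 promoters missing only from control telencephalon 59, a fit without that library gave region differences of 0.06 ± 0.08 (SE) log2 for Wnt7a, −0.07 ± 0.08 for Wnt7b, −0.07 ± 0.09 for Tcf7l1 and 0.05 ± 0.09 for Tcf7l2. The genotype differences in the same fit were 0.05 ± 0.09, −0.01 ± 0.08, −0.01 ± 0.10 and −0.02 ± 0.09.

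Of the 107 merged peaks at the Wnt loci, 16 lay at a promoter, 59 in a gene body and 32 in a flank. Tcf7l2 held 24, Tcf7l1 19, Apc 15, Axin2 11, Wnt7b 9, Wnt7a 8, Apcdd1 7, Lef1 6, Notum 5 and Ctnnb1 3. Lef1, with 113.9 kb, had fewer peaks than Axin2, with 30.4 kb. In all, 14 peaks were called in all 13 libraries, 23 in 12 or 13, and 44 in 1 library. Of the 99746 merged peaks of the whole series, 13075 were called in all 13 libraries, a share close to that of the Wnt loci. Shares over the whole series were not computed for the counts in 12 or 13 libraries and in 1 library. Those counts are not read as a trait of the Wnt loci. Of the 7 gene-body peaks called in 12 or 13 libraries, 4 were in Tcf7l1 and 3 in Tcf7l2, all intronic.

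**Figure D2:**
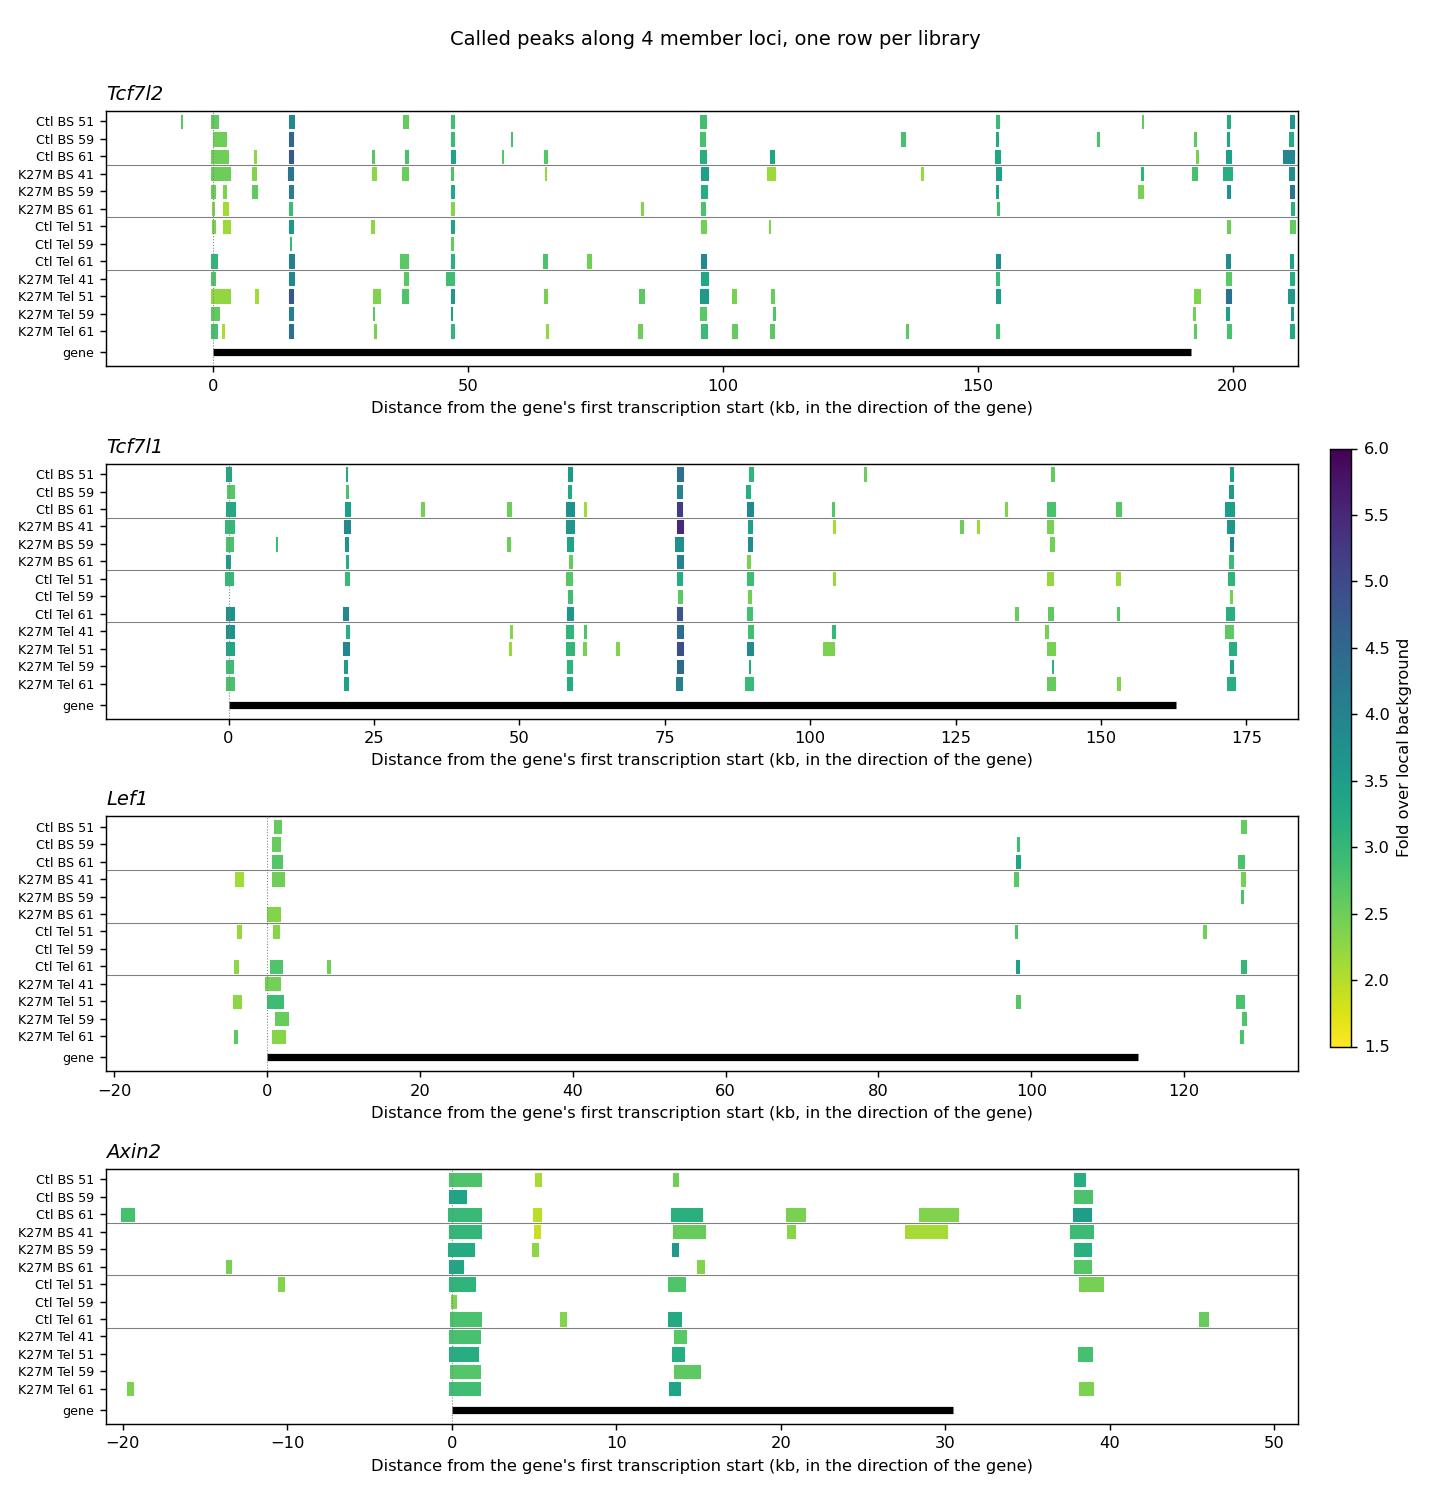
Called peaks at Tcf7l2, Tcf7l1, Lef1 and Axin2, with libraries as rows grouped by region and genotype, distance from the gene start in kb on the horizontal axis, and colour for the fold enrichment of each peak. Columns of peaks shared by nearly all libraries stand at the starts and, in Tcf7l1 and Tcf7l2, within the introns, and the row of control telencephalon 59 holds the fewest peaks.

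The strongest peaks outside promoters at the Wnt genes were intronic, in Tcf7l1 and Tcf7l2. The Tcf7l1 peak, chr6:72711043-72712497 and 77.5 kb from the gene start, had a higher mean fold than the promoter, 4.27 ± 0.79 (SD, n = 13). Its folds were 4.38, 4.00 and 5.20 in control brainstem 51, 59 and 61, 5.50, 3.78 and 4.03 in K27M brainstem 41, 59 and 61, 3.22, 2.64 and 4.83 in control telencephalon 51, 59 and 61, and 4.40, 4.95, 4.48 and 4.06 in K27M telencephalon 41, 51, 59 and 61. Control telencephalon held the 2 lowest libraries, with culture 61 inside the range of the other groups.

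At this Tcf7l1 peak the fitted K27M effect was 0.22 ± 0.10 (SE) log2 in telencephalon (limma adjusted p = 0.998) and −0.09 ± 0.11 in brainstem (limma adjusted p = 0.990). The telencephalic effect was 0.15 ± 0.12 without control telencephalon 59. The difference of the effects was −0.31 ± 0.14 (limma adjusted p = 0.999), and −0.25 ± 0.15 without control telencephalon 59, with a 95% interval of −0.56 to 0.06. The central 300 bases of the peak (chr6:72711620-72711919, minus strand), wholly intronic, held 1 CTTTGTT and no CTTTGAT, and are shown because this was the strongest intronic peak at the Wnt genes.
Tcf7l1 intron: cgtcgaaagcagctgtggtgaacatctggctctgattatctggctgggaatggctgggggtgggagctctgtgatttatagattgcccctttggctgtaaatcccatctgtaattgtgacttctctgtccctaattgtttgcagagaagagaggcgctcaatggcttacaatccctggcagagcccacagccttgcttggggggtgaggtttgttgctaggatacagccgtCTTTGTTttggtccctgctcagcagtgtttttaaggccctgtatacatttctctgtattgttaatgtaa

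The Tcf7l2 peak, chr19:55756417-55757648 and 15.2 kb from the gene start, averaged 4.02 ± 0.58 (SD, n = 13), above both Tcf7l2 promoter peaks. Its folds were 3.90, 4.54 and 4.77 in control brainstem 51, 59 and 61, 4.28, 4.10 and 2.92 in K27M brainstem 41, 59 and 61, 3.61, 2.97 and 4.05 in control telencephalon 51, 59 and 61, and 3.93, 4.77, 4.07 and 4.35 in K27M telencephalon 41, 51, 59 and 61. K27M brainstem 61 and control telencephalon 59, the shortest lists of the 13, were the low libraries.

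At this Tcf7l2 peak the fitted K27M effect was −0.23 ± 0.11 (SE) log2 in brainstem (limma adjusted p = 0.966) and 0.17 ± 0.10 in telencephalon (limma adjusted p = 0.998), or 0.10 ± 0.12 there without control telencephalon 59. The difference of the effects, −0.40 ± 0.14 with a 95% interval of −0.69 to −0.12, had the smallest p of any Wnt-locus peak or promoter in that contrast and a limma adjusted p of 0.999. Without control telencephalon 59 it was −0.34 ± 0.15 (limma adjusted p = 1.00). The central 300 bases (chr19:55756883-55757182, plus strand) are intronic and held neither motif, whereas a CTTTGAT in reverse orientation lay downstream of them within the peak (chr19:55757235-55757281). Both are shown because the peak was the strongest of the gene.
Tcf7l2 intron centre: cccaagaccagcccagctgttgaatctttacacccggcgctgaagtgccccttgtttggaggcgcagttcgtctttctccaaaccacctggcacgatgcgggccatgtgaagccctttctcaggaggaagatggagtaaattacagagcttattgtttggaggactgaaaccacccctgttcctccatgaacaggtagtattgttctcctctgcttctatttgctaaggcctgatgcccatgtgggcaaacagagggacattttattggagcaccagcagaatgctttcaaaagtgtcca
Tcf7l2 intron match: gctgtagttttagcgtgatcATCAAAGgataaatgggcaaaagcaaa

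A further Tcf7l2 intron peak 46.5 kb from the start, chr19:55787482-55789140, averaged 3.06 ± 0.38 (SD, n = 13). Its folds ran from 2.34 to 3.40 in brainstem and from 2.56 to 3.60 in telencephalon, so the regions overlapped. The region difference was −0.14 ± 0.07 (SE) log2 (limma adjusted p = 0.762), and −0.21 ± 0.08 without control telencephalon 59 (limma adjusted p = 0.662).

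In the flank of Tcf7l1, a peak at the promoter of the neighbouring gene Tgoln1 (chr6:72616086-72617927) averaged 3.24 ± 0.42 (SD, n = 13). It ran from 2.93 to 3.97 in brainstem and from 2.45 to 3.48 in telencephalon. Its region difference of 0.17 ± 0.08 (SE) log2 had the smallest region p of the Wnt-locus peaks (limma adjusted p = 0.686), and was 0.11 ± 0.08 without control telencephalon 59. For genotype, the smallest p values belonged to a Tcf7l1 intron peak, chr6:72729833-72731312, with −0.13 ± 0.08 (SE) log2, to the first Apc start with 0.12 ± 0.08 and to the Notum-flank peak at Aspscr1 with 0.10 ± 0.08, each with an adjusted limma p of 0.995. Without control telencephalon 59 these genotype differences were −0.13 ± 0.09, 0.12 ± 0.09 and 0.06 ± 0.09.

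**Figure D3:**
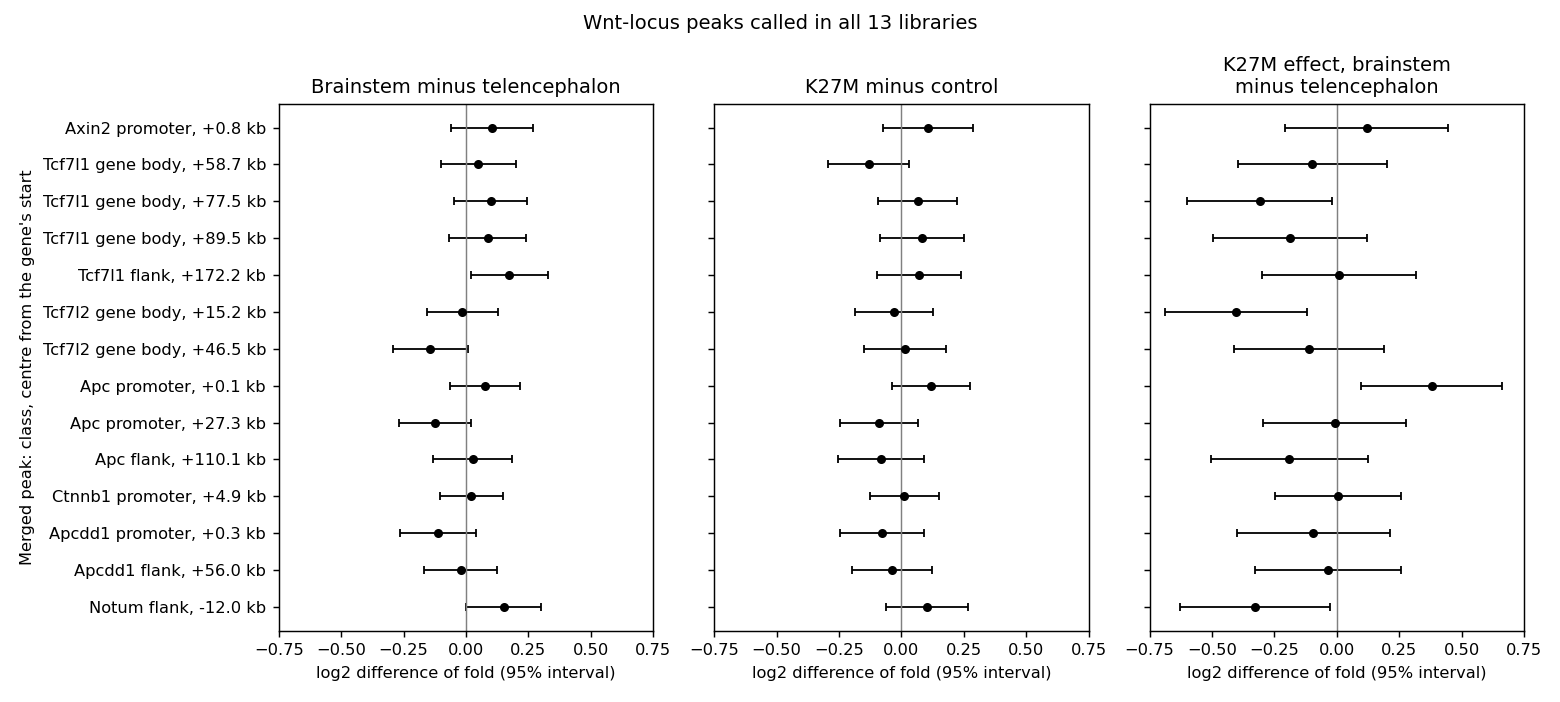
Fitted log2 differences in fold (horizontal axis) for the 14 Wnt-locus peaks called in all 13 libraries: brainstem minus telencephalon, K27M minus control, and the K27M effect in brainstem minus that in telencephalon. Points are estimates and bars are 95% confidence intervals, not adjusted for the number of peaks. Of the intervals, 2 of 14 for region, 0 of 14 for genotype and 4 of 14 for the interaction exclude 0.

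The counts of the Wnt loci are set beside those of all features in the same fits. By fold, 4 of the 10 promoters and 14 of the 107 peaks had a value in every library and could be tested, and 0 passed an adjusted p of 0.05 in any of 7 contrasts. Among all 11483 promoters tested, the calls were 0.0435% by region, 0% by genotype, 0% for the interaction, 0% by region in controls, 0.0261% by region in K27M, 0.00871% by genotype in brainstem and 0% by genotype in telencephalon. At an unadjusted limma p under 0.05, 0 of the 4 Wnt promoters passed in each contrast. The same unadjusted background was 5.27% of all promoters by region, 4.69% by genotype, 4.18% for the interaction, 5.19% by region in controls, 4.01% by region in K27M, 4.33% by genotype in brainstem and 4.37% by genotype in telencephalon.

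Among all 13075 peaks tested by fold, those past an adjusted p of 0.05 were 0.0306% by region, 0% by genotype, 0% for the interaction, 0% by region in controls, 0.00765% by region in K27M, 0% by genotype in brainstem and 0% by genotype in telencephalon. At an unadjusted limma p under 0.05, the 14 Wnt-locus peaks gave 2 by region against a background of 6.75%, 0 by genotype against 4.88% and 4 for the interaction against 4.33%. They gave 2 by region in controls against 5.22%, 2 by region in K27M against 5.57%, 2 by genotype in brainstem against 4.89% and 2 by genotype in telencephalon against 4.18%. The 4 interaction peaks were those of Tcf7l2 at 15.2 kb, Tcf7l1 at 77.5 kb, the first Apc start and Aspscr1, and they did not share a direction, the Apc start being positive and the other 3 negative. Without control telencephalon 59, the unadjusted p stayed under 0.05 at the Tcf7l2 and Apc peaks and not at the Tcf7l1 and Aspscr1 peaks. The median log2 difference of the 14 peaks was 0.04 by region, 0.01 by genotype, −0.10 for the interaction, 0.07 by region in controls, −0.03 by region in K27M, −0.06 by genotype in brainstem and 0.03 by genotype in telencephalon. Over all 13075 peaks the 7 medians lay between −0.00276 and 0.000779.

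Presence or absence of a peak could be tested for 15 of the 107 Wnt-locus peaks, those called in 5 to 8 libraries, and for no promoter of the 10, none of which fell in that range. By two-sided Fisher's exact test 0 of 15 passed an adjusted p of 0.05 for region or for genotype, as did 0% of all 11706 peaks tested for each. At an unadjusted p under 0.05 there were 0 of 15 by region, with a background of 2.36%, and 1 of 15 by genotype, the Pycr1 and Myadml2 peak, with a background of 1.26%. These counts of 0 followed from the number of libraries, the number of peaks tested and how few peaks divided the groups completely. In the whole series these were 7 by region and 2 by genotype. A peak called in every library of one group and in none of the other reached 0.000583, the smallest two-sided p of Fisher's exact test for 6 libraries against 7, and the smallest adjusted p of all peaks was 0.840 by region and 1 by genotype. With so few divided peaks in the series, no Wnt-locus peak could have passed, and differences in detection are given as counts. None was called in every library of one region or genotype and in none of the other over all 13 libraries, against 0.00702% and 0.00201% of all merged peaks, and the Wnt7a intron peak described above was so divided by region within K27M cultures.

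The number of Wnt-locus peaks in a library went with the length of its list. The longest list, control brainstem 61 with 52466 peaks, had 64, K27M brainstem 41 had 63 and K27M telencephalon 51 had 57, while the shortest list had 15. Medians were 42 in brainstem and 44 in telencephalon, and 43.5 in control and 41 in K27M. Per 10000 merged peaks of a library the number ran from 8.94 in control telencephalon 59 to 13.6 in control brainstem 51. When every list was reduced to its 16879 most significant peaks, 35 merged peaks remained at the Wnt loci, 8 of them in all 13 libraries, and a library had 15 to 28. The medians were then 21.5 in brainstem, 21 in telencephalon, 21.5 in control and 21 in K27M.

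**Figure D4:**
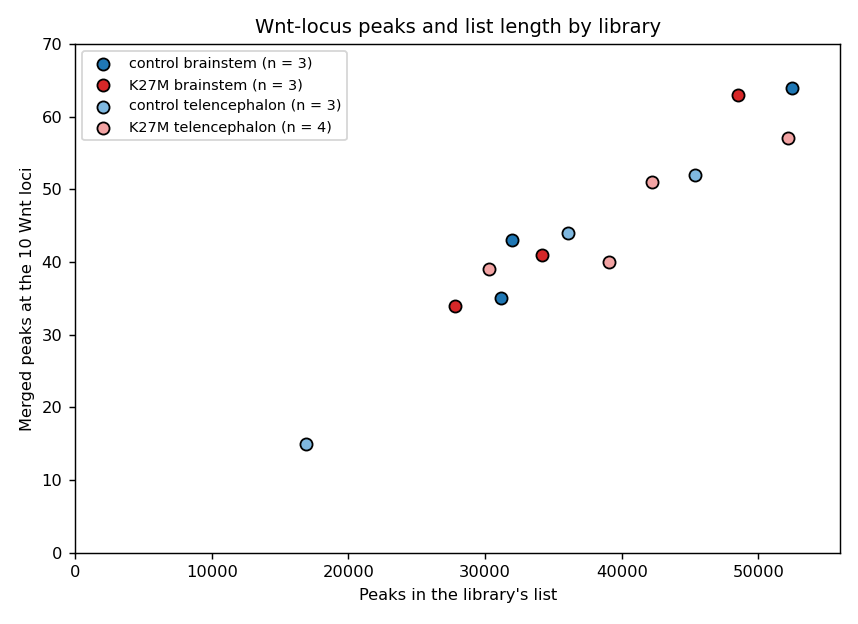
Number of merged peaks at the 10 Wnt loci (vertical axis) against the number of peaks in the list of each library (horizontal axis), coloured by group. Control telencephalon 59 lies lowest with 15 peaks from 16879, and control brainstem 61 highest with 64 from 52466, with the groups intermixed between them.

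At this equal length the promoters of Axin2 and Apc were still called in 13 of 13 libraries. Those of Wnt7a, Tcf7l1 and Apcdd1 were called in 9, those of Wnt7b, Tcf7l2 and Ctnnb1 in 8, and those of Lef1 and Notum in 0. With peaks of p at most 1e-10, the Apc promoter was called in 13 libraries, that of Axin2 in 8, those of Wnt7a and Wnt7b in 3, that of Tcf7l1 in 2, those of Tcf7l2 and Apcdd1 in 1 and those of Lef1, Ctnnb1 and Notum in 0. Over all genes of the annotation, 12348 to 19353 promoters were called per library in the full lists. The range was 11825 to 12683 at equal length and 1121 to 11735 with p at most 1e-10.

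RefSeq promoters of 300 bases were found for 6 of the 10 genes, Wnt7a, Axin2, Lef1, Tcf7l1, Tcf7l2 and Ctnnb1, in 11 entries. CTTTGAT was in 0 of the 11 and in 3.73% of all 32851 RefSeq promoters, and CTTTGTT in 1 of the 11, at the internal Tcf7l2 start, and in 5.85% of all. Over the whole length of the 18 Wnt-locus peaks that were called in 12 or 13 libraries, those of Apc and Apcdd1 left out, CTTTGAT was found 8 times in 7 peaks, or 2.21 times per 10 kb, beside 1.25 per 10 kb over 17593 such peaks of the series. CTTTGTT was found 4 times, or 1.10 per 10 kb, beside 2.45. In the central 300 bases each motif was in 1 of 18 Wnt-locus peaks, beside 516 (CTTTGAT) and 1232 (CTTTGTT) of the 17593. A match describes letters in a peak and is not a measured binding site.

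Further CTTTGAT matches are shown from the first-start peak of Tcf7l2, in an intron 3141 bp from the start (chr19:55744941-55744987, plus strand), and from the flank of Wnt7a, 64477 bp from its start and beyond its end (chr6:91346860-91346906, minus strand), as the matches in peaks called in 12 libraries.
Tcf7l2 first intron: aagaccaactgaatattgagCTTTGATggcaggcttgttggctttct
Wnt7a flank: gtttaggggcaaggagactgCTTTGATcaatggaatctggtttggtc

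Promoter detection was also read for 81 other genes of the pathway, grouped by role. Promoters of 48 were called in 12 or 13 libraries and those of 8 in none, against 50.6% and 30.6% of the 21951 protein-coding genes, while 8 of the 10 genes above reached 12 or 13 libraries. Ligands stood lowest, with 3 of 17 in 12 or 13 libraries (Wnt5a, Wnt11 and Wnt16), and 4, Wnt3, Wnt3a, Wnt8a and Wnt10a, in none. In the full lists Wnt7a and Wnt7b, in 12 each, thus matched the widest called ligands of that list apart from Wnt5a in 13. The order depended on list length. At equal length Wnt7a was called in 9 libraries, Wnt7b in 8, Wnt11 in 5, and Wnt5a and Wnt16 in 1 each.

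Among receptors, 13 of 17 were called in 12 or 13 libraries. The co-receptors differed, with Lrp6 in 13 and Lrp5 in 3. Reck and Adgra2, which pair with Frizzled receptors to read Wnt7 ligands, were called in 13 and 11. At equal list length Lrp6 was called in 1 library and Lrp5 in 0, while Reck was called in 13 and Adgra2 in 1. Of the cytoplasmic transducers and destruction complex, 13 of 16 reached 12 or 13, including Axin1, Gsk3b and Btrc in 13 and Daam2 in 12. At equal list length Axin1, Gsk3b and Btrc stayed at 13 and Daam2 was called in 3. Nuclear cofactors reached 7 of 9, secreted inhibitors 5 of 11, receptor turnover genes and R-spondins 5 of 9, and ligand secretion genes, Porcn and Wls, 2 of 2. Tcf7, the remaining member of the TCF/LEF family, was called in 7 libraries.

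**Figure D5:**
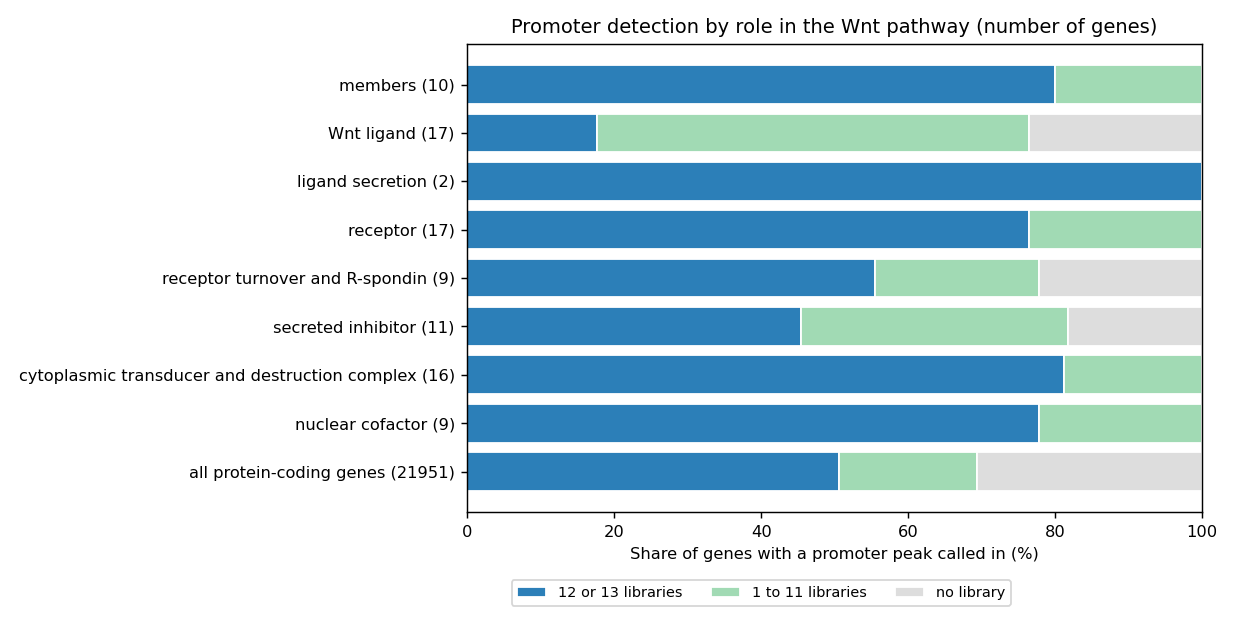
Share of genes in percent (horizontal axis) whose promoter was called in 12 or 13, in 1 to 11 or in no library, for the 10 Wnt genes (members), for 81 other pathway genes by role and for all protein-coding genes. Ligands have the smallest share in 12 or 13 libraries, 3 of 17, and cytoplasmic transducers the largest of the roles with more than 2 genes, 13 of 16.

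Of these 81 genes, 31 could be tested by promoter fold, and 0 passed an adjusted limma p of 0.05 in either direction in any of the 7 contrasts. For region, 0 passed an unadjusted p under 0.05 and the smallest belonged to Frzb, a secreted inhibitor, with −0.14 ± 0.07 (SE) log2, the kinase gene Gsk3b with −0.12 ± 0.07 and the receptor gene Ror1 with 0.11 ± 0.07, with limma adjusted p values of 0.915 to 0.917. For genotype, 2 of the 31 passed the unadjusted threshold, beside 4.69% of all 11483 promoters. Wif1, a secreted inhibitor that binds Wnt ligands, was at −0.29 ± 0.08 log2 in K27M, with a 95% interval of −0.45 to −0.13 (limma adjusted p = 0.975), and Lgr5, an R-spondin receptor gene, at 0.16 ± 0.07 (limma adjusted p = 0.999). Apc2, a relative of Apc, was at −0.14 ± 0.07 (limma adjusted p = 0.999). The Wif1 estimate was −0.26 ± 0.11 in brainstem and −0.32 ± 0.10 in telencephalon.

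With 6 libraries against 7, the 95% intervals of the 4 tested Wnt promoters differed in width, from 0.93-fold to 1.10-fold for Ctnnb1 by region to 0.95-fold to 1.21-fold for Axin2 by genotype. For the interaction at Axin2 the interval was 0.87-fold to 1.35-fold. Peak lists record calls and heights and carry no read counts, so the depth of each library is unknown, and a missing peak was read as not called.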

How the data were processed

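ATAC-seq peak lists of 13 OPC cultures were analysed, grouped by region and genotype from the sample labels. Per the labels and the study's methods, the authors trimmed reads with Trim Galore 0.6.7 and cutadapt 3.4, used BWA 0.7.17-r1188 for alignment to mm10, left out blacklisted regions and ran MACS2 2.2.7.1 in broad mode on each library alone. The study gives a broad cutoff for its ChIP-seq calls, made with the same MACS2 version. Whether it was used for the ATAC-seq lists is not given in the sources used here, and the lowest deposited −log10 q-value was 1.00. The deposited lists give each peak a fold enrichment over local background, a ratio that the authors did not normalise between libraries. They also give a deposited −log10 p-value, which ranked peaks for lists of equal length, and a deposited score, which served only as a check of the format.

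The 10 genes, the pathway list and the markers were chosen with earlier results of these data known. Gene positions came from GENCODE M21 (GRCm38). A promoter was the window from 2 kb before to 1 kb after any start, and peaks overlapping by at least 1 bp were merged. The log2 of the highest fold was compared over features called in all 13 libraries, after cyclic loess, with limma 3.58.1 (moderated, with trend) in R 4.3.3, with the 4 groups and the culture number as terms. Detection was compared with two-sided Fisher's exact tests over features called in 5 to 8 libraries. P-values were adjusted by Benjamini-Hochberg over all features tested, with a threshold of 0.05. The scripts were tested on simulated data. Sequence of chromosome 18 was not searched for motifs. Tables and sequences were handled with Python 3.11.15, pandas 2.3.3, numpy 2.4.6 and scipy 1.17.1.

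Named peaks were those past the threshold or dividing a pair of groups completely, failing that the 3 with the smallest p for region and for genotype, and the strongest promoter and other peak of each gene. Of the pathway list, up to 3 genes per contrast with the smallest p were named. Matched culture numbers were taken from the study's methods. Deviations from group means correlated from −0.06 to 0.17 (median 0.07) in 16 pairs with the same number and from −0.19 to 0.26 (median −0.04) in 47 other pairs. Nothing in the labels says which cultures came from separate litters. The limma p-values rest on the spread left between these libraries after the group and culture terms, moderated over all features tested. The reported Fisher's exact tests took libraries as separate and did not use the culture number. Alternatives were equal list length, p at most 1e-10, no culture term, other normalizations, other windows and each library left out. A read depth is unknown for every library, so no counting interval was computed.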

Additional observations from a re-analysis of the deposited data

How the results depend on the processing

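For 18 results, the number of Wnt promoters or peaks past the threshold in each test, 359 alternative settings were run and 0 gave another count than 0, including every fit without 1 library (lowest 0, highest 0). Of these settings, 72 were of detection tests, whose counts of 0 say nothing of stability because no peak could pass in the reported test, and 287 were of fold tests. Culture numbers were a term of the fits because the study matched cultures, although 4 of 16 same-number pairs correlated above 0.1. With no replicate block the count was also 0, and in the detection tests the replicate block, an exact permutation within culture number, gave 0. In the whole series the counts over alternatives ran from 0 to 5 promoters by region (5 as reported) and 0 to 7 peaks (4), from 0 to 1 promoters and 0 to 2 peaks by genotype (0), from 0 to 2 promoters for the interaction (0), from 0 to 5 promoters (3) and 0 to 1 peaks (1) by region in K27M, from 0 to 1 peaks by region in controls (0), and from 0 to 2 promoters (1) and 0 to 1 peaks (0) by genotype in brainstem. The causes were not tested. The Ctnnb1 promoter difference changed sign in 2 of 18 alternatives by region and 3 of 18 by genotype. The differences of Axin2, Apc and Apcdd1 and of the 5 named peaks kept their sign, but their size moved. Axin2 ran from 0.03 to 0.16 log2 by region and from 0.03 to 0.20 by genotype, Apc from −0.17 to −0.01 and from −0.13 to −0.01, and Apcdd1 from −0.17 to −0.05 and from −0.13 to −0.04. Unknown depth limits what a missing peak means.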
